A study of Mus musculus with 6 samples.

Results

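A panel of 9 tight junction genes, named by symbol, was followed in the dental epithelium of newborn mice with and without the pyruvate kinase gene Pkm. It held the claudins Cldn1, Cldn3, Cldn4, Cldn7, Cldn10 and Cldn12, occludin (Ocln) and the scaffold genes Tjp1 and Tjp3. All 9 were found by symbol among the 24959 genes of the count table, and 8 of them had enough reads to be tested. Cldn3 was the exception. The samples were labelled as dental epithelial cells at postnatal day 0. Those of the conditional knockout (cKO) group carried the genotype label PKM knockout (3 libraries), and those of the control group the label WT (3 libraries). The labels name neither the Cre driver, the deleted exon and the strain nor any pooling of tissue. The question asked of these genes was whether their RNA differed between Pkm cKO and control tissue.

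Tight junctions seal the space between neighbouring epithelial cells near their apical side. Claudins are membrane proteins that pair with claudins of the next cell, and the set that a cell makes determines which ions pass between cells. Occludin belongs to another family of junction membrane proteins, and the Tjp proteins (ZO proteins) bind the tails of claudins inside the cell and tie them to actin. In teeth, secretory ameloblasts are joined by such junctions while they lay down and mineralise enamel. In humans, loss of CLDN16 or CLDN19, claudins best known from the kidney, can be accompanied by defective enamel.

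The libraries held 30588350 to 39085792 counts in the cKO group and 38130829 to 39415700 in the control group. Pkm had 309, 395 and 350 CPM (reads of a gene over the TMM-scaled size of its library) in cKO libraries, against 1281, 1185 and 1049 CPM in controls. A gene was called where its edgeR p, adjusted over all tested genes, lay under 0.05. Of 15930 tested genes, 88 (0.552%) were, 55 higher in cKO (0.345%) and 33 lower (0.207%), a split of 57 to 18 with upper-quartile scaling. For 23.3% of all tested genes the groups did not overlap, in either direction. Epithelial marker genes were abundant in every library, with a summed level of 10911 to 11777 CPM in cKO libraries and 13752 to 15972 CPM in controls. Of these 12 markers 8 had fold changes below 0, and the groups did not overlap for 4, all lower in cKO. Summed markers of dental mesenchyme and fibroblasts stood at 19641 to 41452 CPM in cKO libraries and 20519 to 32127 CPM in controls, a sum made up mostly of Col1a1 and Col1a2. Of the 14 mesenchymal markers 12 had fold changes above 0, and the groups did not overlap for 9, all higher in cKO, against 11.2% of all tested genes in that direction. Of 10 immune markers the groups did not overlap for 8, all higher in cKO (1 called), and of 6 erythroid markers tested they did not overlap for 5, all lower in cKO (3 called), against 12.2% of all tested genes in that direction. The part of these other cells in the panel's values was not tested. Skeletal muscle markers were abundant in cKO replicate 3 alone, with 2246 CPM, against 57.4 and 13.7 CPM in the other cKO libraries and at most 2.26 CPM in controls. In such bulk samples fewer cells of a type and less RNA per cell cannot be told apart.

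No gene of the panel was called by the main edgeR fit. The alternatives DESeq2 and limma-voom also called 0 of them, against 7.02% and 0.0126% of all tested genes. With the replicate number added to the edgeR fit as a block, Cldn4 was called, among 708 of the 15930 tested genes. Of the 8 panel genes tested in the main fit, 3 had log2 fold changes (cKO minus control) above 0 and 5 below. Their median was -0.06, against 0.0068 over all tested genes. Cldn10 and Cldn12 were the only panel genes whose groups did not overlap, both lower in cKO. That is 2 of 8 tested genes, near the 23.3% of all tested genes. At an unadjusted p under 0.05 there were 4 of 8 panel genes, against 17.5% of all tested genes: Cldn10, Cldn12 and Tjp1 with lower and Tjp3 with higher mean levels in cKO. The 6 claudins summed to 235, 270 and 248 CPM in cKO libraries and to 238, 260 and 239 CPM in controls. Their means, 251 ± 17.3 and 246 ± 12.6 CPM (SD, n = 3 each), differed by less than the spread between replicates (exact permutation test, two-sided, p = 0.7).

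**Figure D1:**
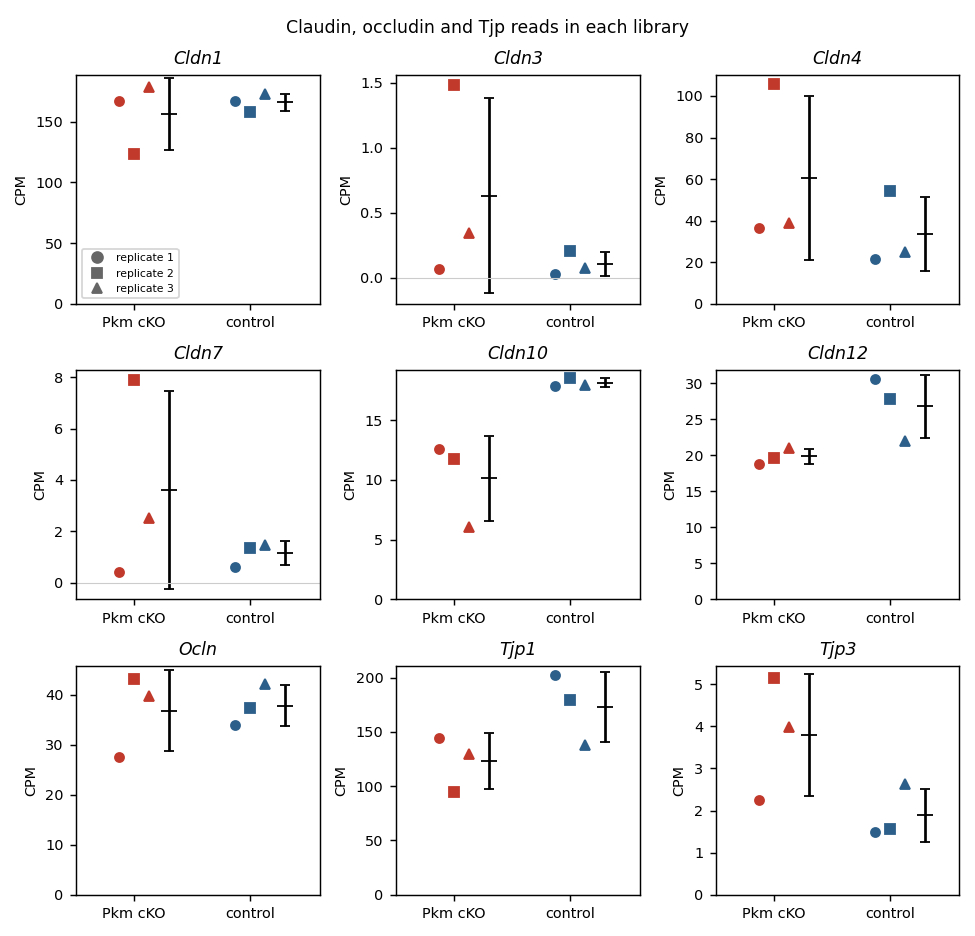
Reads of the 9 genes in CPM (vertical axes, 1 panel per gene, linear scales) in Pkm cKO libraries (red, left) and controls (blue, right). Circles, squares and triangles are replicates 1, 2 and 3, and the black bar is the mean ± SD (n = 3); Cldn10 and Cldn12 show no overlap between groups, while Cldn3, Cldn4 and Cldn7 are highest in cKO replicate 2.

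Cldn1 is the main claudin of the epidermal barrier, and mice without it die soon after birth from water loss through the skin. It had 167, 123 and 179 CPM in cKO libraries, against 167, 158 and 173 CPM in controls. Apart from a low value in cKO replicate 2 the libraries were close to each other, and the groups overlapped. The log2 fold change was -0.09 (SE 0.166, edgeR adjusted p 0.828), and without cKO replicate 2 it was 0.07. Per kilobase of exon, which allows genes to be compared, Cldn1 ranked first in controls with a level of 34.3 ± 1.502 CPM per kilobase (SD, n = 3), above every other gene of the panel in each control library. Among cKO libraries its level was 32.3 ± 6.09 CPM per kilobase and overlapped that of Cldn4.

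Cldn3 and Cldn4 are close relatives that both serve as receptors for an enterotoxin of Clostridium perfringens, and their genes lie on chromosome 5 on opposite strands. Cldn4 had 36.5, 106 and 39.1 CPM in cKO libraries, against 21.6, 54.2 and 24.8 CPM in controls. Replicate 2 was the highest library in each group, and control replicate 2 lay above cKO replicates 1 and 3, so the groups overlapped. The means were 60.5 ± 39.3 CPM in cKO libraries and 33.5 ± 18.0 CPM in controls (SD, n = 3 each). The log2 fold change of Cldn4 was 0.85 (SE 0.563, edgeR adjusted p 0.499). Without cKO replicate 2 it was 0.18 (SE 0.404), and without control replicate 2 it was 1.38 (SE 0.519). With the replicate number as a block it was 0.79 (SE 0.162, edgeR adjusted p 0.0238). No label says that equal replicate numbers share a litter or batch. Its level per kilobase was 33.3 ± 21.6 CPM in cKO libraries and 18.5 ± 9.91 CPM in controls (SD, n = 3 each), at rank 1 in the cKO group and at rank 3, overlapping Tjp1, in the control group. Its rank in the cKO group came from replicate 2, with 58.3 CPM per kilobase against 25.4 for Cldn1. In cKO replicates 1 and 3 Cldn4 had 20.1 and 21.5 CPM per kilobase, below Cldn1 at 34.5 and 37.0.

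Cldn3 was the scarcest of the panel. It had 2, 51 and 14 reads in cKO libraries, against 1, 8 and 3 reads in controls, which corresponds to 0.0646, 1.48 and 0.348 CPM against 0.0272, 0.207 and 0.0778 CPM. As for Cldn4, replicate 2 was the highest in each group. It did not pass the filter on low counts. When every gene with at least 1 read was tested, its fitted log2 fold change was 2.56 (SE 0.993, edgeR adjusted p 0.237), a value that rests on few reads. The 250 bases before the annotated starts of Cldn3 and Cldn4 are shown because of the order of their libraries. Within each group both genes were highest in replicate 2 and lowest in replicate 1. In controls the Cldn3 order rests on 1, 8 and 3 reads, few enough that counting error could change it. Sequences are from RefSeq on build GRCm38.p6, 5′ to 3′ on the strand of the gene, at chr5:134985964-134986213 on the plus strand for Cldn3 and chr5:134946935-134947184 on the minus strand for Cldn4. Capitals mark the motifs found.
Cldn3: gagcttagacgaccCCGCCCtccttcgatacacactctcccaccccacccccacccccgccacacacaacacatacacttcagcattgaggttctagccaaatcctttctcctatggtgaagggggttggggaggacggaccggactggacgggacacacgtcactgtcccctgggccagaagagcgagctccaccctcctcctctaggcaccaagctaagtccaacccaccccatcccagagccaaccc
Cldn4: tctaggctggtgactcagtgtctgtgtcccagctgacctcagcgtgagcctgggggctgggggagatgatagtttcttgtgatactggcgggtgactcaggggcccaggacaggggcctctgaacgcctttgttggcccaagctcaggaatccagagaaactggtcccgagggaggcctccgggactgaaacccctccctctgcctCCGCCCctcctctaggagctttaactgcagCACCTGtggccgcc

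A small set of motifs was searched on both strands of these windows. They were the GC box (GGGCGG), the E-box bound by Snail and Zeb repressors (CAGGTG), a Grainyhead-like motif (AACCNGTT) and the TATA box (TATAAA). Cldn3 held 1 GC box, and Cldn4 held 1 GC box and 1 E-box, which do not overlap. Over 32851 promoter windows of the same length, 32.7% held the GC box, 17.2% the E-box, 1.79% the Grainyhead-like motif and 12.4% the TATA box. A match describes letters in the window and no binding was measured here.

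Cldn7, which binds the epithelial adhesion protein EpCAM and lies along the sides of many epithelial cells, had 0.420, 7.88 and 2.51 CPM in cKO libraries, against 0.599, 1.35 and 1.48 CPM in controls. It was scarce, with 13, 271 and 101 reads in cKO libraries and 22, 52 and 57 reads in controls. The cKO libraries held both the lowest and the highest value, and the groups overlapped. The log2 fold change of Cldn7 was 1.65 (SE 0.897, edgeR adjusted p 0.389), and without cKO replicate 2 it was 0.37 (SE 0.751). Without cKO replicate 1 the groups did not overlap and it was 2.18 (SE 0.566, edgeR adjusted p 0.0633). Epcam stood at 203, 293 and 252 CPM in cKO libraries and 228, 231 and 313 CPM in controls.

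Cldn10 is made in several forms from alternative first exons, Cldn10a, which favours anions, and Cldn10b, which favours cations. The gene had 12.6, 11.8 and 6.03 CPM in cKO libraries, against 17.9, 18.6 and 18.0 CPM in controls. Controls lay within a narrow range, every cKO library was below them, and cKO replicate 3 was the lowest. Its means were 10.1 ± 3.58 CPM in cKO libraries and 18.2 ± 0.385 CPM in controls (SD, n = 3 each). The log2 fold change was -0.84 (SE 0.279, edgeR adjusted p 0.169) and the lowest p of the panel was that of Cldn10, at rank 1225 of all tested genes. Leaving out cKO replicate 3, the library rich in muscle RNA, gave -0.56 (SE 0.195).

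Both annotated starts of Cldn10 are shown because the deposited counts add both forms, so a difference in either form cannot be read from them. The windows of 250 bases lie at chr14:118787621-118787870 for the first start and chr14:118854700-118854949 for the second, both on the plus strand of GRCm38.p6. Capitals mark GC boxes.
Cldn10 first start: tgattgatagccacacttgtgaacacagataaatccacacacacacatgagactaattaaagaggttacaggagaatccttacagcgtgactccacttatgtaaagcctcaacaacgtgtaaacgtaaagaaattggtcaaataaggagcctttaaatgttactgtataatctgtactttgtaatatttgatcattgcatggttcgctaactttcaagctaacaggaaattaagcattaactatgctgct
Cldn10 second start: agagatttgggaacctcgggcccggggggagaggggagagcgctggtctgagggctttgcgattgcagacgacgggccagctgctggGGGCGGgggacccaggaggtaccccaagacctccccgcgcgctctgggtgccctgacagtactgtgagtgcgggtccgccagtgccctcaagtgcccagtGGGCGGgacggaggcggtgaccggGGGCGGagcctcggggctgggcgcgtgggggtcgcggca
Only the second window held a motif of those searched, with 3 GC boxes. Its content of G and C was 72.4%, against 36% in the first window.

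Cldn12 differs from most claudins in that its tail lacks the usual motif that binds the PDZ domains of Tjp proteins. It had 18.9, 19.7 and 21.0 CPM in cKO libraries, against 30.7, 27.8 and 22.0 CPM in controls. The cKO libraries lay close together below the controls, and control replicate 3 was only just above them. The means were 19.8 ± 1.07 CPM in cKO libraries and 26.8 ± 4.42 CPM in controls (SD, n = 3 each), with a log2 fold change of -0.43 (SE 0.191, edgeR adjusted p 0.279). The gap rested on the scaling: with total counts alone cKO replicate 3 stood at 21.6 CPM and control replicate 3 at 21.5 CPM, so that the groups overlapped.

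Occludin had 27.6, 43.1 and 39.8 CPM in cKO libraries, against 34.0, 37.4 and 42.1 CPM in controls. The cKO group held both the lowest and the highest library. Its log2 fold change was -0.04 (SE 0.201, edgeR adjusted p 0.946), and the sign turned with upper-quartile scaling, at 0.00056. Per kilobase its level was 8.72 ± 1.93 CPM in cKO libraries and 8.96 ± 0.967 CPM in controls (SD, n = 3 each), rank 4 in each group, where its libraries overlapped neither the gene above nor the gene below.

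Tjp1 encodes ZO-1, the scaffold found in nearly all epithelia and also in other cell types. It had 145, 94.5 and 130 CPM in cKO libraries, against 202, 179 and 138 CPM in controls. Control replicate 3 lay between cKO replicates 1 and 3, so the groups overlapped. The means were 123 ± 25.8 CPM in cKO libraries and 173 ± 32.5 CPM in controls (SD, n = 3 each), with a log2 fold change of -0.49 (SE 0.200, edgeR adjusted p 0.244). Without cKO replicate 1 or without control replicate 3 the groups did not overlap, and the log2 fold changes were -0.63 and -0.64.

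Tjp3 encodes ZO-3, a scaffold that is restricted to epithelia. It had 2.26, 5.14 and 3.97 CPM in cKO libraries, against 1.498, 1.55 and 2.62 CPM in controls. Only cKO replicate 1 lay within the range of the controls. The means were 3.79 ± 1.45 CPM in cKO libraries and 1.89 ± 0.633 CPM in controls (SD, n = 3 each), a fold of 2.01 (log2 fold change 1.00, SE 0.425, edgeR adjusted p 0.263). Both Tjp1 and Tjp3 were measured in the same libraries, and in each group the order of the libraries for Tjp3 was the reverse of that for Tjp1. For Tjp3 the order of control replicates 1 and 2 rests on 55 and 60 reads, so counting error could swap them. Per kilobase Tjp3 stood at 1.02 ± 0.390 CPM in cKO libraries and 0.509 ± 0.170 CPM in controls, far below Tjp1 at 15.7 ± 3.30 and 22.2 ± 4.16 CPM.

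**Figure D2:**
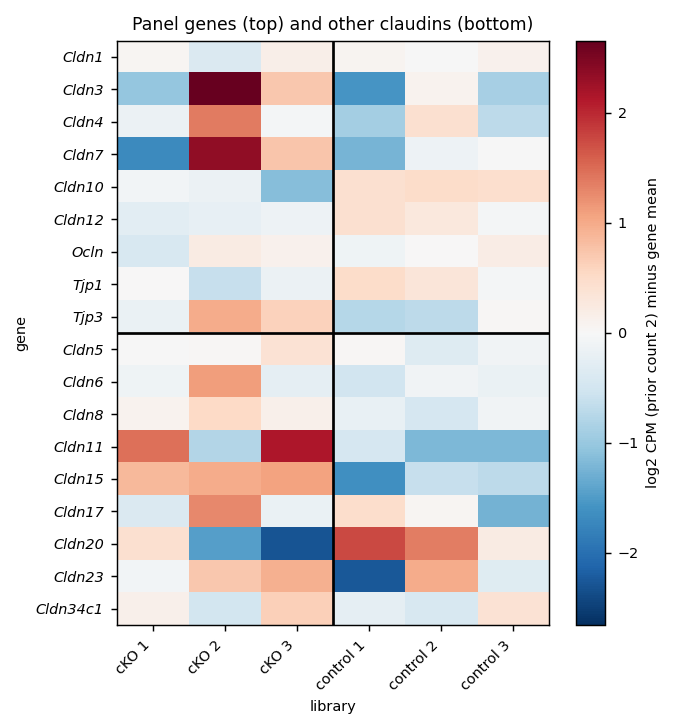
Level of each gene in each library as log2 CPM (prior count 2) minus the mean of that gene over the 6 libraries (color), with cKO libraries left of the vertical line and controls right of it. The 9 panel genes are above the horizontal line and the 9 other claudins that passed the filter below it; Cldn3, Cldn4, Cldn7, Cldn6, Cldn8 and Cldn17 are among those highest in cKO replicate 2.

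The makeup of the claudin reads differed most in cKO replicate 2. Cldn1 gave 70.9%, 45.6% and 72.2% of the counts of the 6 claudins in cKO libraries, against 70.3%, 60.8% and 72.2% in controls. Cldn4 gave 15.5%, 39.2% and 15.8% in cKO libraries, against 9.06%, 20.8% and 10.4% in controls. In cKO replicate 2 the exact binomial 95% interval of the Cldn4 share was 38.2% to 40.2%, and it covers counting error only. Cldn10 gave 2.43% to 5.35% of the counts in cKO libraries and 7.14% to 7.54% in controls, without overlap. For Cldn12 the shares were 7.30% to 8.46% in cKO libraries and 9.20% to 12.9% in controls, also without overlap, and these do not depend on the scaling between libraries. The nearest pair, cKO replicate 3 and control replicate 3, had exact binomial 95% intervals of 7.92% to 9.03% and 8.62% to 9.81%, which overlap. Shares are of reads, so longer transcripts weigh more.

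**Figure D3:**
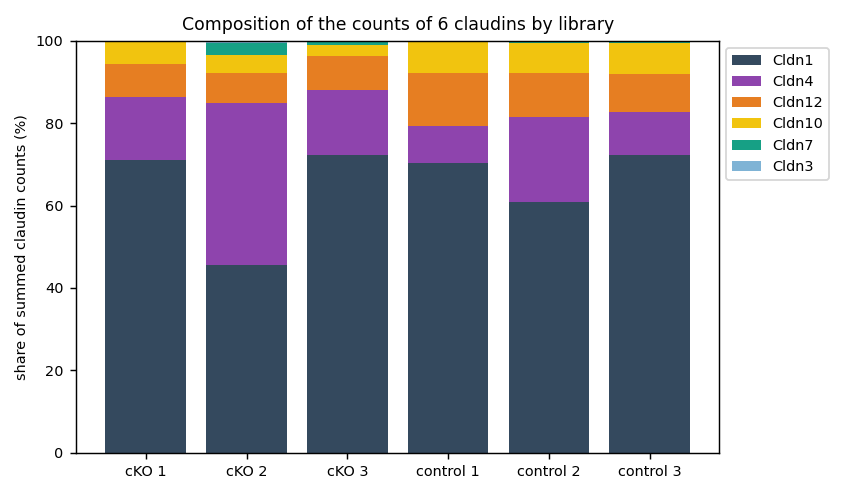
Share of each claudin in the summed counts of the 6 claudins (vertical axis, percent) for each library, cKO left and controls right. Cldn1 and Cldn4 together make up most of the reads in every library, and Cldn4 takes its largest share, 39.2%, in cKO replicate 2.

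Since the summed epithelial markers were lower in cKO libraries, the panel was also set against epithelial genes of the same library. The geometric mean of Epcam, Cdh1, Krt5, Krt14 and Trp63 was 870, 879 and 840 CPM in cKO libraries, against 1292, 1132 and 1180 CPM in controls. The lower mean raises the ratio of any gene to it in cKO libraries. How many of all tested genes have groups apart on this ratio scale was not computed. On this scale Tjp3 had a log2 ratio (pseudocount 0.5 CPM) of -8.30, -7.28 and -7.55 in cKO libraries and -9.34, -9.11 and -8.56 in controls. The groups did not overlap, and the difference was 1.29 (two-sided exact permutation test, p = 0.1, the smallest that 3 against 3 allows; adjusted over the 9 genes, 0.386). The Cldn3 ratio was higher in every cKO library only with this pseudocount, by 1.19 in the mean: with 0.1 CPM the difference was 1.83, but the exact permutation p was 0.2 and the groups overlapped, as its CPM did. With Epcam alone as the comparison gene the Cldn3 groups overlapped too. Cldn4 and Cldn7 differed by 1.26 and 1.32 with overlap between groups, and without cKO replicate 2 by 0.78 and 0.55. Without cKO replicate 1 the Cldn7 difference was 2.14.

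On the same ratio scale the differences of Cldn12 and Tjp1 were 0.06 and -0.02. Of the 5 epithelial genes, Cdh1, Krt5, Krt14 and Trp63 were lower in cKO without overlap. Epcam had a log2 fold change of -0.05 and its groups overlapped. Against Epcam alone the Cldn12 and Tjp1 differences were -0.37 and -0.45, and against Cdh1 alone they were 0.36 and 0.28. Cldn10 had ratios of -6.05, -6.16 and -7.01 in cKO libraries and -6.14, -5.89 and -5.99 in controls, which overlapped, with a difference of -0.40 (exact permutation p = 0.2, adjusted 0.386). It was -0.10 with Cdh1 alone, -0.83 with Epcam alone and -0.099 without cKO replicate 3. The part of epithelial content in these differences was not tested.

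**Figure D4:**
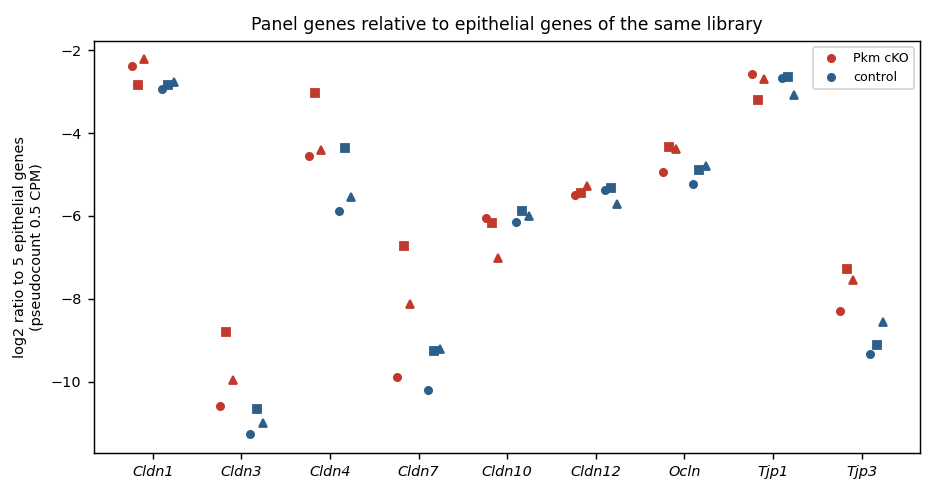
Log2 ratio of each panel gene to the geometric mean of 5 epithelial genes in the same library (vertical axis, pseudocount 0.5 CPM), with Pkm cKO (red) left of control (blue) for each gene; circles, squares and triangles are replicates 1, 2 and 3. The groups are apart for Tjp3, higher in cKO, and for Cldn3, though not with a pseudocount of 0.1 CPM, and overlap for the other 7. The share of all tested genes apart on this scale was not computed.

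Of 23 other claudins listed, 16 were in the table and 9 passed the filter. edgeR and limma-voom called 0, and DESeq2 called Cldn11 and Cldn15, higher in cKO, against 7.02% of all tested genes by that tool. At an unadjusted p under 0.05 by edgeR there were 3 of 9, against 17.5% of all tested genes. Of the 9, 8 had fold changes above 0 (median 0.54, against 0.0068 over all tested genes). The groups did not overlap for 2, both higher in cKO, against 11.2% of all tested genes in that direction. Cldn15, a claudin that forms cation pores in the intestine, had 1.32, 1.45 and 1.54 CPM in cKO libraries, against 0.191, 0.440 and 0.415 CPM in controls (log2 fold change 2.03, SE 0.510, edgeR adjusted p 0.0986). Cldn8, known from the kidney, had 3.46, 4.71 and 3.58 CPM in cKO libraries, against 2.83, 2.36 and 3.04 CPM in controls.

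Cldn6, a claudin of embryonic epithelia, had 37.2, 87.2 and 34.2 CPM in cKO libraries, against 28.3, 37.6 and 35.6 CPM in controls, again highest in cKO replicate 2. Cldn17 was highest in that library too, with 1.84, 5.96 and 2.135 CPM in cKO libraries, against 3.35, 2.51 and 0.986 CPM in controls. Cldn20 had 8.46, 2.24 and 1.24 CPM in cKO libraries, against 21.2, 16.3 and 7.29 CPM in controls (log2 fold change -1.92, SE 0.781, edgeR adjusted p 0.281). The 10 ameloblast markers, led by Amelx, all had fold changes below 0 (median log2 fold change -2.22). The groups did not overlap for 9 of them, all lower in cKO (1 called), against 12.2% of all tested genes in that direction. Their sum was ordered as Cldn20 was within each group, at 7059, 2049 and 999 CPM in cKO libraries and 27599, 23875 and 12241 CPM in controls. The sum of the 5 odontoblast markers had that order too, at 3669, 1056 and 396 CPM in cKO libraries and 5321, 4385 and 2446 CPM in controls. Single ameloblast markers such as Odam did not all have that order. The part of either cell type in the Cldn20 values was not tested.

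Claudins of other tissues were also read. Cldn5, the claudin of blood vessels, had 13.1, 13.5 and 17.2 CPM in cKO libraries, against 13.6, 10.4 and 12.5 CPM in controls. The 9 endothelial markers summed to 377 to 672 CPM in cKO libraries and 365 to 430 CPM in controls, also highest in cKO replicate 3. Cldn11, known from myelin and the testis, had 2.39, 0.465 and 3.87 CPM in cKO libraries, against 0.599, 0.337 and 0.337 CPM in controls (log2 fold change 2.40, SE 0.713, edgeR adjusted p 0.136). Sox10, a regulator of glial cells, had 27, 10 and 71 reads in cKO libraries, against 0, 4 and 2 reads in controls, and thus the same order within the cKO group. The glial marker list as a whole summed to 88.4 to 98.6 CPM in cKO libraries and 83.3 to 96.6 CPM in controls; its part in the Cldn11 values was not tested. Cldn34c1 had a log2 fold change of 0.23 (SE 0.442). Cldn23 was scarce, with 6, 13 and 18 reads in cKO libraries and 0, 18 and 6 reads in controls. Cldn16, of interest for enamel, had 0 reads in every cKO library and at most 1 in a control, and Cldn19 had at most 3 in any library.

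**Figure D5:**
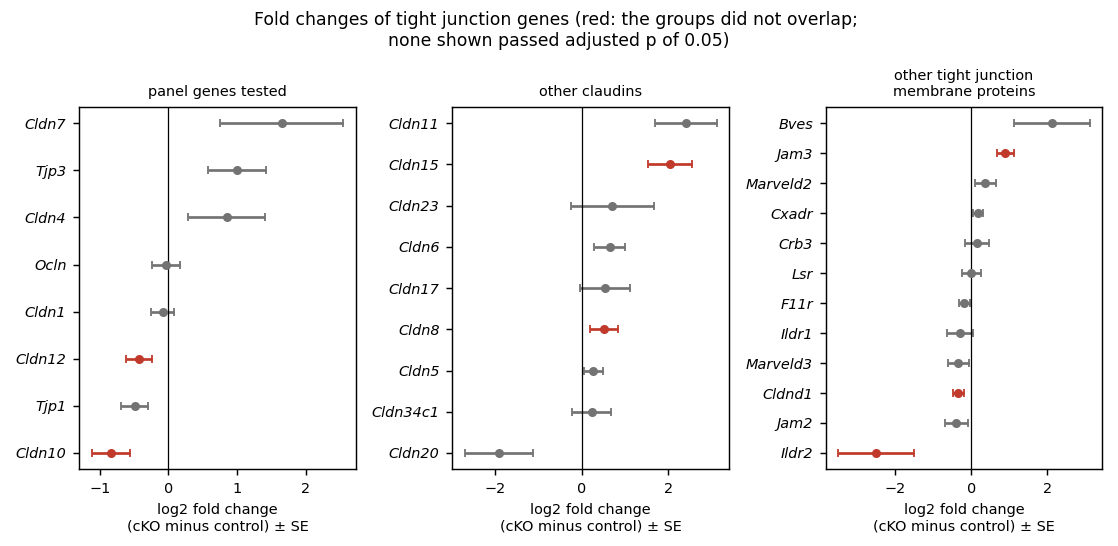
Log2 fold change, cKO minus control, ± SE (horizontal axes, a different range in each panel) of the 8 panel genes that were tested, 9 other claudins and 12 other membrane proteins of the tight junction. Red marks genes whose groups did not overlap. In the main edgeR fit 0 of the genes shown had an adjusted p under 0.05.

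The other membrane proteins of the junction were spread around 0. Of 12 tested, 6 lay above 0 and 6 below (median -0.08). edgeR and limma-voom called 0 and DESeq2 called 1, Jam3 (7.02% of all tested genes by that tool). At an unadjusted p under 0.05 by edgeR there were 2 of 12, near the 17.5% of all tested genes. Jam3, a junctional adhesion molecule also made by endothelium and other cells, stood at 20.9, 16.7 and 26.1 CPM in cKO libraries, against 9.61, 12.0 and 12.6 CPM in controls (log2 fold change 0.90, SE 0.230, edgeR adjusted p 0.101). Ildr2, a relative of the proteins that seal corners where several cells meet, had 64.2, 9.998 and 8.37 CPM in cKO libraries, against 217, 146 and 100.5 CPM in controls (log2 fold change -2.49, SE 0.993, edgeR adjusted p 0.303). Its groups did not overlap, and the cKO libraries were far from each other. Cldnd1, a claudin-like membrane protein, stood at 87.1 ± 9.34 CPM in cKO libraries and 110 ± 1.31 CPM in controls (SD, n = 3 each; edgeR adjusted p 0.263). Bves, known from muscle and epithelium, had 2.06 CPM in cKO replicate 3, the library rich in muscle RNA, and at most 0.407 CPM elsewhere. Tricellulin (Marveld2), the partner of occludin at such corners, was chosen for mention after its values were seen, with 6.94, 12.9 and 11.05 CPM in cKO libraries, against 8.495, 7.95 and 7.55 CPM in controls.

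Among 23 other scaffolds and adaptors, 9 had fold changes above 0 and 14 below (median -0.02). edgeR and limma-voom called 0 and DESeq2 called 1, Prkci (7.02% of all tested genes by that tool). With edgeR 4 of 23 had an unadjusted p under 0.05, near the 17.5% of all tested genes. The lowest p belonged to Prkci, the atypical protein kinase C of the Par polarity complex. It had 220, 185 and 210 CPM in cKO libraries, against 345, 314 and 315 CPM in controls, without overlap (log2 fold change -0.67, SE 0.141, edgeR adjusted p 0.0720). Rab13, a small GTPase that traffics junction proteins, had 22.8, 20.8 and 18.4 CPM in cKO libraries, against 14.1, 13.6 and 14.4 CPM in controls (edgeR adjusted p 0.174). Amotl1, an angiomotin of the junction, averaged 315 ± 37.8 CPM in cKO libraries and 426 ± 53.0 CPM in controls (SD, n = 3 each; edgeR adjusted p 0.204). Patj, a scaffold of the Crumbs complex, averaged 58.6 ± 13.3 CPM in cKO libraries and 80.4 ± 12.4 CPM in controls (SD, n = 3 each; edgeR adjusted p 0.279).

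Transcription factors that act on epithelial junction genes were listed as well. Of 11 regulators that maintain epithelia 7 lay above 0 and 4 below (median 0.04); edgeR, DESeq2 and limma-voom called 0, with 2 of 11 at an unadjusted p under 0.05 by edgeR, near the 17.5% of all tested genes. Grhl1, a Grainyhead-like factor, averaged 22.8 ± 2.86 CPM in cKO libraries and 14.9 ± 3.44 CPM in controls (SD, n = 3 each; edgeR adjusted p 0.203), without overlap. Trp63, the master factor of stratified epithelium, averaged 362 ± 22.8 CPM in cKO libraries and 465 ± 37.7 CPM in controls (SD, n = 3 each; edgeR adjusted p 0.227), also without overlap. Ehf and Grhl3, both linked to epithelial differentiation, had log2 fold changes of 1.21 (SE 0.566) and 1.04 (SE 0.600). Grhl3 was highest in replicate 2 of each group, as Cldn4 was, with 2.68, 9.71 and 4.37 CPM in cKO libraries, against 1.61, 5.00 and 1.53 CPM in controls. Elf3 and Ovol1 of the same list were also highest in replicate 2 of each group. A link of these factors to Cldn4 was not tested.

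The 6 repressors of epithelial junction genes had 5 fold changes above 0 (median 0.80). The gene below 0 was Snai2, which had the highest mean of the 6 in both groups. It averaged 41.1 ± 7.56 CPM in cKO libraries and 48.4 ± 4.79 CPM in controls (SD, n = 3 each; log2 fold change -0.24, edgeR adjusted p 0.542). The summed level of the 6 was 100 to 174 CPM in cKO libraries and 85.4 to 107 CPM in controls, with overlap. edgeR and limma-voom called 0, and DESeq2 called Twist1 and Zeb2 (7.02% of all tested genes by that tool). By edgeR 4 of 6 had an unadjusted p under 0.05, against 17.5% of all tested genes. Twist1 averaged 27.5 ± 8.85 CPM in cKO libraries and 12.6 ± 2.66 CPM in controls (SD, n = 3 each; log2 fold change 1.12, edgeR adjusted p 0.0889). Snai1 averaged 18.0 ± 1.48 CPM in cKO libraries and 10.9 ± 2.92 CPM in controls (SD, n = 3 each; log2 fold change 0.72, edgeR adjusted p 0.164). Zeb2 and Twist2 had log2 fold changes of 1.05 (SE 0.340) and 0.89 (SE 0.374). These factors are made by mesenchyme, and Twist1 also stands in the list of mesenchymal markers, of which 9 of 14 were higher in cKO without overlap, against 11.2% of all tested genes. How much of the repressors' RNA came from mesenchyme was not tested.

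By level per kilobase, the order of the panel in cKO libraries was Cldn4, Cldn1, Tjp1, Ocln, Cldn12, Cldn10, Cldn7, Tjp3 and Cldn3, with Cldn4 above Cldn1 in replicate 2 only. In controls it was Cldn1, Tjp1, Cldn4, Ocln, Cldn10, Cldn12, Cldn7, Tjp3 and Cldn3. Neighbours whose libraries overlapped in the cKO group were Cldn4 and Cldn1, and each pair from Cldn12 down to Cldn3. In the control group they were Tjp1 and Cldn4, Cldn10 and Cldn12, and Cldn7 and Tjp3. Cldn12 stood at 4.69 ± 0.253 and Cldn10 at 3.91 ± 1.38 CPM per kilobase in cKO libraries, against 6.34 ± 1.05 and 7.01 ± 0.149 CPM per kilobase in controls (SD, n = 3 each).

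The genes most like the panel were found by the Pearson correlation of log2 CPM with the mean centred profile of its 8 tested genes over the 6 libraries, among genes of at least 5 CPM. They were the deubiquitinase gene Usp11, the zinc finger gene Cxxc5, the calpain gene Capn5, the gene Arhgap33 and the collapsin response mediator gene Dpysl5, with r between 0.9735 and 0.9801. Usp11 had 62.9, 96.8 and 78.2 CPM in cKO libraries, against 64.1, 76.4 and 71.6 CPM in controls, highest in cKO replicate 2 and lowest in cKO replicate 1. The r values describe 6 libraries and were the highest of many genes. The panel's own genes did not share 1 profile: Cldn4, Cldn7 and Tjp3 were highest in cKO replicate 2, where Cldn1 and Tjp1 were lowest.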

How the data were processed

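RNA of 6 samples was sequenced. Per the labels' protocols, total RNA was taken with a column kit and made into libraries with a universal RNA-seq kit. The counts were deposited by the authors as whole numbers of reads for each gene. The submitters' processing notes name fastp, HISAT2 and mm39. Because no source used here gives the counting program, its strand setting or the annotation, overlapping, antisense and near-identical genes cannot be told apart. The labels speak of biological replicates; if replicates shared tissue, p-values measure only the spread between samples.

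Counts were filtered with filterByExpr, scaled by TMM and compared with edgeR's quasi-likelihood test (robust; edgeR 4.0.16, limma 3.58.1, DESeq2 1.42.0, R 4.3.3), two-sided, with Benjamini-Hochberg adjustment over 15930 genes. SE is the fold change over the square root of F. Exon lengths were unions of GENCODE M21 exons (GRCm38), another build than mm39. Exact permutation tests used all 20 splits. The edgeR, DESeq2 and limma-voom fits were run on simulated counts with known fold changes, to check the sign and size of the fitted values. The simulation held no outlier library, so it does not show how stable the calls in these data are. Counting error matters for genes of low counts, such as Cldn3, Cldn7, Tjp3, Cldn11, Cldn15 and Cldn23. No pair of libraries was a duplicate (chi-square per gene at least 28.2). Genes and lists were chosen with earlier results of these data known. The text names the panel, the other claudins that passed the filter, up to 4 genes of lowest p in each other junction or regulator list, Pkm, and the 5 nearest genes; others are said to be chosen later. Cldn16, Cldn19, Sox10 and Snai2 were also named after their values were seen, as were Epcam, Grhl3, Elf3 and Ovol1 for their library order. Alternatives were other scalings, filters and tools, the replicate number as a block, each library left out, other comparison genes and another pseudocount.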

Additional observations from a re-analysis of the deposited data

How the results depend on the processing

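The number of genes called was fragile: 55 with DESeq2 size factors, 518 with no filter beyond 1 read, 1118 with DESeq2, 2 with limma-voom, 2 without robust estimation, and 0 to 640 when a library was left out (0 without any 1 control, with 1532 to 2495 genes at an unadjusted p under 0.05). With the replicate number as a block it was 708, and 1 panel gene was called, Cldn4 (log2 fold change 0.79, edgeR adjusted p 0.0238, against 0.0238 to 0.881 over all its fits). The deviations of same-numbered libraries correlated at 0.234, 0.015 and 0.215, and those of differently numbered ones at -0.278 to 0.070. These values do not settle whether the numbers pair the samples. No label says that equal numbers share a litter or batch, so the main fit had no block. In every fit without the block 0 panel genes were called. Cldn10 came nearest with DESeq2 (adjusted p 0.0629). Of 112 refitted fold changes 4 turned sign: Ocln with upper-quartile scaling (0.00056), without cKO replicate 1 (0.13) and without control replicate 3 (0.04), and Cldn1 without cKO replicate 2 (0.066); leaving out a library gave -0.16 to 0.13 for Ocln and -0.18 to 0.066 for Cldn1. Of 81 ratios to epithelial genes 8 did: with Epcam alone Cldn1 (-0.057), Cldn12 (-0.37) and Ocln (-0.011), Tjp1 with Cdh1 alone (0.28), without cKO replicate 2 (0.17) and without control replicates 1 (0.05) and 2 (0.05), and Cldn12 without control replicate 3 (-0.060); leaving out a library gave -0.16 to 0.17 for Tjp1 and -0.060 to 0.14 for Cldn12. The cause was not tested. Panel genes whose groups did not overlap numbered 1 without TMM scaling and 2 to 6 with a library left out, 6 of 9 without cKO replicate 1 (39.1% of all tested genes) and 4 of 9 without control replicate 3 (37.7%); these counts were added after the data were seen, and fewer libraries overlap less by construction. Low counts limit Cldn3, Cldn7 and Tjp3.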
